A study of Mus musculus with 15 samples.

Results

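The voltage-gated sodium and calcium channel genes were taken as the protein-coding genes whose symbols name a numbered sodium channel subunit (Scn followed by a number and a or b) or begin with Cacna1, Cacna2d, Cacnb or Cacng. The rule picked 38 of the 54232 genes in the count table, and other genes of these families are not analysed here. Of the 38, 33 passed the filter on low counts and were tested, and 32 had a mean of at least 1 CPM (counts scaled to the library's normalized total) over all 15 libraries. RNA came from the striatum of mice aged 6 months, with 1 library per mouse, in 3 genotypes. The labels give 7 mice as WT, 4 as E1 and 4 as KI-96. The title of the study concerns Huntington's disease knock-in mice and toxicity of RAN translation, the making of protein from repeats without a start codon. The labels name E1 and KI-96 without saying what either carries, and give no strain, sex or promoter. All mice therefore share tissue and age, and genotype is the single factor the labels vary. Every library has its own mouse number, and no mice are described as pooled.

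Voltage-gated sodium channels open on depolarization and carry the rising phase of the action potential. Each is built of a large pore subunit (the Scn genes ending in a) and smaller beta subunits, cell-adhesion-like proteins that set gating and surface level. Voltage-gated calcium channels turn depolarization into calcium entry for transmitter release, firing patterns and gene expression: a pore (Cacna1) is accompanied by an extracellular subunit (Cacna2d) and an intracellular beta subunit (Cacnb) that bring it to the membrane. Most Cacng genes expressed in brain encode TARPs, auxiliary subunits of AMPA-type glutamate receptors, named for their likeness to the gamma subunit of muscle calcium channels. Projection neurons of the striatum rest at a very negative potential and fire only on strong excitatory drive, which these channels shape.

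The WT libraries held 17281603 to 26388542 counts each, the E1 libraries 18199927 to 19533231 and the KI-96 libraries 14678565 to 23373551. Some libraries stood apart in ways that touch the channel genes. The summed level of 4 Y-linked genes (Uty, Kdm5d, Ddx3y and Eif2s3y) was above 10 CPM in 6 of 7 WT libraries (158 to 205 CPM) and in none of the E1 or KI-96 libraries (0 to 0.132 CPM). WT replicate 1 held 0 such reads. E1 and KI-96 against WT therefore also compare libraries with at most 2 Y-linked reads with a WT group in which 6 of 7 have 2680 to 5755 of them, and genotype and Y-linked status can hardly be told apart there. KI-96 against E1 is free of that difference. WT replicate 3 and E1 replicates 2 and 3 had mean log2 CPM over 12 cortical excitatory neuron markers of 6.15, 6.33 and 5.73, beside 2.58 to 3.87 in the other 12 libraries. KI-96 replicate 3 departed from its group by gene length, as described with the results. The 12 markers of spiny projection neurons, the main cells of the striatum, had mean log2 CPM of 8.62 to 9.46, and 0 of them was without reads in any library.

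Promoters are shown for 4 genes on which the levels and comparisons turn: Scn1a and Cacna1i, which had the smallest p in a comparison, Scn2a, an abundant pore gene with few CpG dinucleotides, and Cacna2d1, whose window is rich in them. Each sequence is the 250 bases before the gene's most upstream annotated start, from RefSeq on build GRCm38.p6. It is given 5′ to 3′ on the gene's own strand, with every CG in capitals. Scn2a has 2 annotated windows, and the one further downstream was not examined. Scn1a is read from the minus strand at chr2:66440838-66441087 and holds 4 CpG. Scn2a lies at chr2:65620519-65620768 on the plus strand (2 CpG), Cacna1i at chr15:80286988-80287237 on the plus strand (16 CpG) and Cacna2d1 at chr5:15934441-15934690 on the plus strand (36 CpG).
Scn1a: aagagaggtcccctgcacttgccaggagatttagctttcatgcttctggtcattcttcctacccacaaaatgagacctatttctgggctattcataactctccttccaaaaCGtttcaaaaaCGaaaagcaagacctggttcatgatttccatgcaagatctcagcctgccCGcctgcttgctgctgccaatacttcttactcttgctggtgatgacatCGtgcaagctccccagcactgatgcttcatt
Scn2a: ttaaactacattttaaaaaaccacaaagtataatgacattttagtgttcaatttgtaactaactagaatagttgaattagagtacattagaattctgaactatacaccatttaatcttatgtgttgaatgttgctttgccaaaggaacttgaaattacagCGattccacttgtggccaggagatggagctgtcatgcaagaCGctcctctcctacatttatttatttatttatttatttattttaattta
Cacna1i: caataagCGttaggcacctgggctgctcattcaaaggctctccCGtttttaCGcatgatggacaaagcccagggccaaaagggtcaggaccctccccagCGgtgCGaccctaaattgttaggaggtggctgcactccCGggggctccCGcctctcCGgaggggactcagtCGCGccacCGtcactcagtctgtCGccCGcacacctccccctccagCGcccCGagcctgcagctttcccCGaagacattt
Cacna2d1: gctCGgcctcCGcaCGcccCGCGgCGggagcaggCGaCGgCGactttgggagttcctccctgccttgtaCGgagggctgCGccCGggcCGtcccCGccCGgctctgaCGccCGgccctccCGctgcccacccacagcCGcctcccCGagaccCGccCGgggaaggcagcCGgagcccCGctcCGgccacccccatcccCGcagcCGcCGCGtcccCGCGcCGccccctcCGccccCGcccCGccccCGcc

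The Scn1a and Scn2a windows are sparse in CpG, and those of Cacna1i and Cacna2d1 carry them along their length. A RefSeq window was found for 29 of the 38 channel genes. The 24 tested genes among them held a median of 8.5 CpG (0 to 37), and the 5 that the filter removed held a median of 5 (3 to 9), beside a median of 6 over 27025 genes with a window. At least 20 CpG were present in 8 of the 24 (33.3%): Scn8a, Cacna1b, Cacna2d1, Cacna2d2, Cacna2d3, Cacnb1, Cacnb2 and Cacnb4. Over all windows, of genes tested or not, the share was 17.7%, beside 27.6% of the 29 channel genes with a window. The limit of 20 was chosen after the values were seen. Neither TTCAGCACC, from the start of the neuron-restrictive silencer element, nor TGACGTCA, the full cyclic-AMP response element, was found on either strand in the 29 windows. Over all windows these letters occurred in 0.292% and 1.6%.

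Levels between genes were compared as CPM per kilobase of merged exons, and all values in this paragraph and the following 2 are on that scale. Among sodium channel pores, 3 genes of the adult brain led. In WT, Scn2a, the pore of unmyelinated axons and the initial segment of projection neurons, stood at 22.1 ± 1.62 (SD, n = 7), and Scn8a, the main pore of the mature initial segment and nodes, at 19.0 ± 1.86. Scn1a, the pore on which fast-spiking interneurons depend most, was next at 14.1 ± 1.58, and Scn3a, mainly an embryonic form, stood at 7.58 ± 0.949. Scn2a and Scn8a lay closer together than the sum of their SDs. The sensory neuron pore Scn9a (mean 0.909 over 15 libraries) and the sodium-sensing Scn7a (0.355) were far lower. The muscle pore Scn4a and the sensory neuron pores Scn10a and Scn11a were removed by the filter, with 23, 88 and 98 reads in all 15 libraries together. The beta subunit Scn2b, which is joined to the pore by a disulfide bond, averaged 92.1 and the beta subunit Scn3b 27.1, both above the mean of every sodium channel pore. Summed by library, the pore genes came to 65.2 ± 4.31 in WT. Scn1a, Scn2a, Scn3a, Scn7a and Scn9a lie together on chromosome 2 of GRCm38, between 65457118 and 66784914, so members of 1 gene cluster differed in mean level over the 15 libraries from 0.355 to 22.7.

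Among the calcium channel pores analysed here, Cacna1h (19.7 ± 2.04 in WT), Cacna1i (17.6 ± 2.30) and Cacna1e (17.6 ± 1.70) were highest. These 3 lay within the sum of their SDs of each other. Cacna1h and Cacna1i encode T-type pores, which open near the resting potential, and Cacna1e the R-type pore. Cacna1b, the N-type pore of presynaptic terminals, followed at 12.9 ± 1.07. The neuronal L-type pores Cacna1c (6.70 ± 0.647) and Cacna1d (4.75 ± 0.442) were lower, and so was Cacna1g (3.80 ± 1.74), the T-type pore most typical of thalamic relay neurons. The retinal L-type gene Cacna1f was tested but averaged under 1 CPM, and Cacna1s of skeletal muscle was removed with 87 reads.

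The extracellular subunits were led by Cacna2d3 (mean 24.4 over the 15 libraries) and Cacna2d2 (18.7), with Cacna2d1 at 10.9 and the retinal Cacna2d4 at 0.510. Of the intracellular beta subunits, Cacnb1 (44.7) and Cacnb3 (40.9) were above Cacnb4 (24.3) and Cacnb2 (5.39). Part of the exons of Cacnb4, 16.0%, is shared with a gene on the other strand, and whether reads were counted by strand is not given. The TARP genes ran from Cacng7 at 59.9 through Cacng4 (45.7), Cacng3 (32.6), Cacng8 (28.2) and Cacng2 (17.2) to Cacng5 at 3.18. Of the gamma subunits of muscle, Cacng1 averaged 1.11 and Cacng6 was removed with 62 reads. Among channel genes of at least 1 CPM, the least variable over the 7 WT mice were Cacna2d1 (coefficient of variation 6.92%), Scn2a (7.31%) and Cacna1b (8.32%). Among the most variable were Cacna1g (45.7%) and Scn7a (45.4%).

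Levels by genotype are given next as CPM, for comparison within a gene. Among sodium channel genes not described further on, Scn3a stood at 94.4 ± 11.8 CPM in WT, 94.8 ± 8.93 CPM in E1 and 103 ± 21.0 CPM in KI-96 (SD, n = 7, 4 and 4, as in all such values). Scn9a stood at 11.9 ± 4.62, 9.01 ± 3.21 and 13.7 ± 5.65 CPM, and Scn7a at 2.63 ± 1.19, 2.99 ± 0.608 and 2.19 ± 0.655 CPM. For these 3 genes the genotype means differed by less than the SD of at least 1 group. The presynaptic pore Cacna1b had 128 ± 10.6, 124 ± 15.9 and 147 ± 33 CPM, and Cacna1e had 443 ± 42.9, 474 ± 86.8 and 514 ± 163 CPM. Cacna1c had 142 ± 13.7, 132 ± 9.20 and 159 ± 38.6 CPM, and Cacna1d 59.9 ± 5.58, 53.7 ± 6.96 and 58.9 ± 14.5 CPM. In all 4 of these pores KI-96 had the widest spread. Cacna1h had 193 ± 19.9, 163 ± 37.1 and 215 ± 37.4 CPM, and Cacna1g 38.5 ± 17.6, 44.9 ± 34.8 and 41.1 ± 21.5 CPM. Summed as CPM per kilobase, the sodium channel pores came to 57.9 ± 3.72 in E1 and 73.8 ± 18.6 in KI-96, and the T-type pores to 41.1 ± 4.16 in WT, 38.6 ± 4.45 in E1 and 49.7 ± 7.51 in KI-96.

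Of the auxiliary subunits, Cacna2d1 stood at 125 ± 8.68, 139 ± 34.3 and 151 ± 38.4 CPM in WT, E1 and KI-96, and Cacna2d3 at 219 ± 26.1, 212 ± 24.6 and 202 ± 38.2 CPM. The retinal Cacna2d4 had 4.81 ± 1.05, 4.19 ± 1.46 and 5.51 ± 0.937 CPM. For Cacna2d1 the KI-96 and E1 libraries varied far more than the WT libraries. Cacnb2 had 72.6 ± 7.85, 66.1 ± 6.52 and 74.3 ± 7.91 CPM, Cacnb3 161 ± 45.4, 188 ± 60.4 and 145 ± 25.6 CPM, and Cacnb4 212 ± 25.8, 214 ± 24.4 and 232 ± 55.0 CPM. For Cacnb3 and Cacnb4 the genotype means differed by less than the SD of the most variable genotype, and for Cacnb2 E1 was the lowest. Cacng2, the TARP also known as stargazin, had 84.5 ± 17.0, 94.2 ± 10.4 and 114 ± 45.7 CPM, and Cacng8 60.7 ± 9.44, 66.9 ± 9.82 and 74.4 ± 7.09 CPM. Cacng7 had 150 ± 17.9, 149 ± 6.31 and 137 ± 37.9 CPM, and Cacng5 11.7 ± 2.64, 10.9 ± 1.59 and 14.3 ± 3.41 CPM. The muscle subunit Cacng1 had 1.30 ± 0.456, 1.62 ± 0.849 and 1.31 ± 0.366 CPM. The summed TARP level was 175 ± 21.2 CPM per kilobase in WT, 195 ± 17.0 in E1 and 200 ± 17.0 in KI-96, with Cacng2 in KI-96 the most spread relative to its mean.

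**Figure D1:**
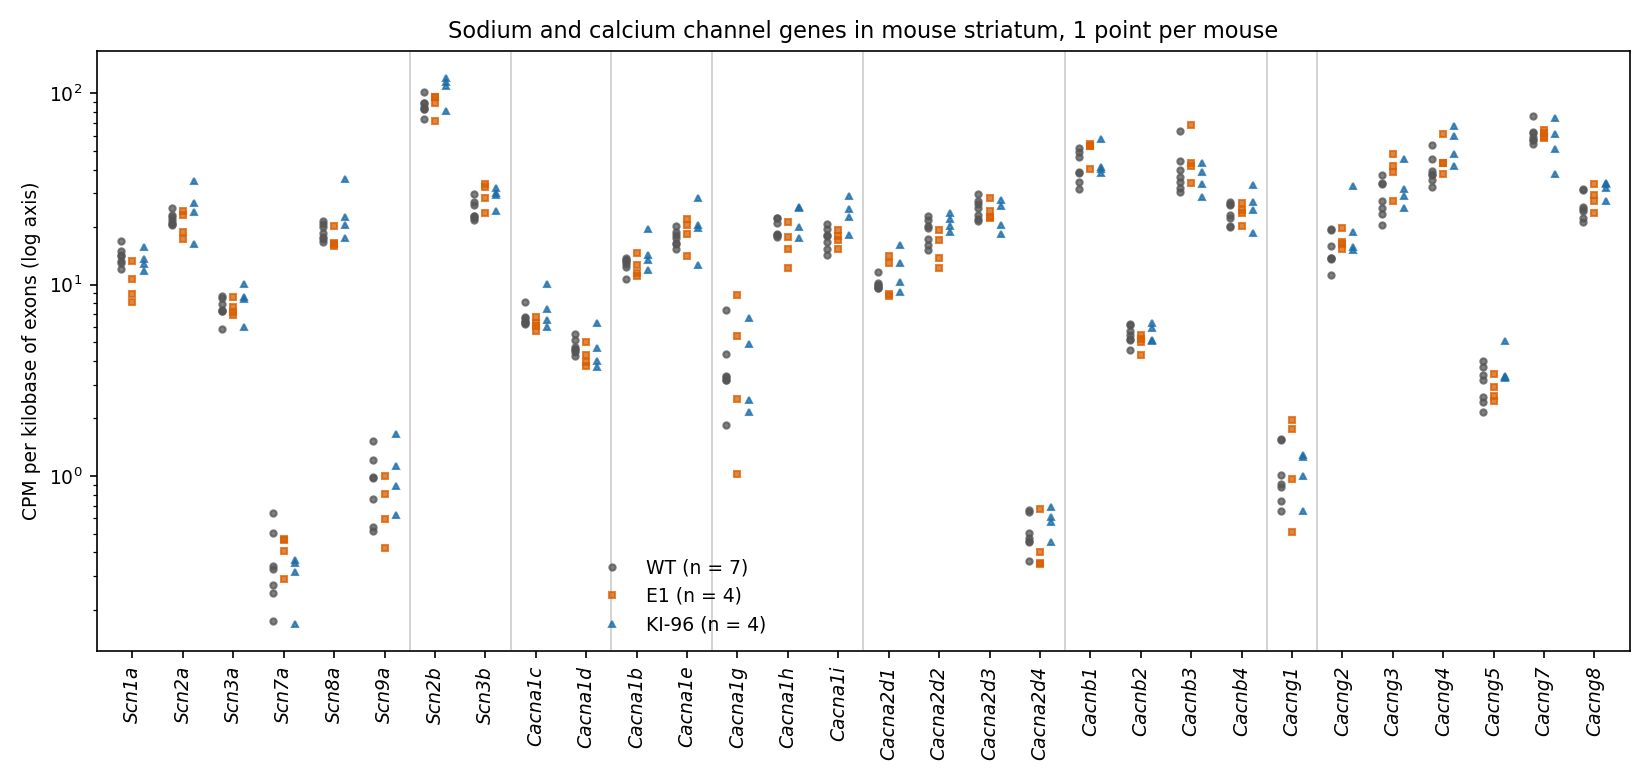
Level of 30 channel genes at or above 1 CPM in every mouse, as CPM per kilobase of exons on a log axis. Each point is 1 mouse (grey circles WT, orange squares E1, blue triangles KI-96) and vertical lines part the roles; Scn2b is at the top, and Scn7a and Cacna2d4 at the bottom.

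E1 against WT asks how striatal RNA differed between mice of the E1 genotype and WT mice. None of the 33 tested channel genes passed the threshold, an adjusted p under 0.05 in edgeR's quasi-likelihood test with Benjamini-Hochberg adjustment over 18278 genes (0.00547% of all genes passed). DESeq2 and limma-voom also called 0 of them. At an unadjusted p under 0.05 stood 4 of 33, beside 8.75% of all genes. Cacng3 and Scn3b were higher (as were 3.69% of all genes at that p), and Scn1a and Cacna2d2 lower (as were 5.06%). The median log2 fold change of the 33 was 0.0061, with 17 positive, beside -0.0019 over all genes. The E1 and WT libraries overlapped for all 33, while for 1.69% of all genes they did not. Of the 12 cortical markers 11 were higher in E1, with a median log2 fold change of 1.19. Without the 3 libraries high in them, 1 of the 33 channel genes was at an unadjusted p under 0.05. That fit keeps only replicates 1 and 4 of E1. Fewer mice and fewer cortical reads cannot be told apart there, and the share of all genes at that p was not recorded.

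Scn1a had the smallest p. Its WT libraries ran from 135 to 189 CPM with a median of 157, and the 4 E1 libraries stood at 99.5, 119, 90.1 and 148 CPM. E1 replicates 1 to 3 lay below all 7 WT libraries, and E1 replicate 4 lay inside the WT range. The means were 158 ± 17.6 CPM in WT and 114 ± 25.6 CPM in E1 (SD), a log2 fold change of -0.47 (SE 0.13, edgeR adjusted p = 0.448). A two-sided exact permutation test of log2 CPM gave p = 0.00909 over 330 splits, of which the smallest possible is 0.00303. Scn1a was picked for its smallest p among the 33, and this permutation p, like those given for Cacna1i, makes no allowance for that choice. WT replicate 1, the WT library without Y-linked reads, had 157 CPM, above all 4 E1 libraries. Without E1 replicate 4 the log2 fold change was -0.62 (SE 0.12) with an edgeR adjusted p of 0.0205, so that 1 channel gene passed, while 257 genes passed in all.

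Markers of interneurons were set beside Scn1a, and they did not move alike. Pvalb, which marks fast-spiking interneurons, was at 8.71, 34.0, 17.9 and 123 CPM in E1 replicates 1 to 4, beside 34.9 to 119 CPM in WT. As with Scn1a, E1 replicates 1 to 3 were below the WT range and replicate 4 was not (for Pvalb it was above the range), but the Pvalb difference itself had an edgeR adjusted p of 0.728 (log2 fold change -0.76, SE 0.63). KI-96 replicate 3 went the other way, with the highest Scn1a of its group (174 CPM) and the lowest Pvalb (34.3 CPM). Differences of that library from its group rose with gene length, as described below. Scn1a has 11146 exonic bases and Pvalb 1041, and the part of length in these values was not tested. Of the 8 interneuron markers, 3 were higher in E1 (Sst, Npy and Vip) and 5 lower, with a median log2 fold change of -0.08. Only Chat (log2 fold change -0.48, SE 0.14, edgeR adjusted p 0.448) had an unadjusted p under 0.05. The 8 markers summed to 307 to 466 CPM in E1 and 356 to 496 CPM in WT, and 0 of the 8 was without reads in any library. Their part in the Scn1a values was not tested. In bulk tissue, fewer cells of a type and less RNA per cell cannot be told apart.

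None of the other sodium channel genes passed the threshold in E1 either. Scn2a had 281 ± 20.6 CPM in WT and 266 ± 41.8 CPM in E1 (log2 fold change -0.08, 95% interval -0.40 to 0.24). Scn8a had 300 ± 29.3 and 273 ± 32.2 CPM (-0.14, interval -0.46 to 0.18). Scn3a differed by 0.01 (-0.26 to 0.27). Of the 7 tested pore genes 5 had negative fold changes. The beta subunit gene Scn3b had a positive value, with 135 ± 16.0 CPM in WT and 161 ± 24.7 CPM in E1 (158 ± 18.2 CPM in KI-96; E1 against WT 0.26, SE 0.11, edgeR adjusted p 0.530).

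Among genes with calcium channel symbols in E1, Cacng3, which encodes an auxiliary subunit of AMPA-type receptors, had the largest positive value. This TARP had 56.8 to 104 CPM in WT (median 76.1) and 134, 115, 108 and 76.5 CPM in the 4 E1 libraries. E1 replicates 1 to 3 were above the WT range and replicate 4 was within it, a log2 fold change of 0.44 (SE 0.18, edgeR adjusted p 0.530). KI-96 averaged 91.2 ± 24.6 CPM. WT replicate 1 was the highest WT library, and with Y-linked level as a covariate the value was 0.061. That covariate rests on WT replicate 1, the only WT library without Y-linked reads. Cacnb1 had 188 ± 34.8 CPM in WT, 228 ± 30.0 CPM in E1 and 202 ± 39.9 CPM in KI-96 (E1 against WT 0.28, SE 0.14, adjusted p 0.606), and -0.038 with that covariate. Cacna2d2 had 151 ± 23.6 CPM in WT, 124 ± 25.1 CPM in E1 and 169 ± 17.0 CPM in KI-96 (E1 against WT -0.28, SE 0.13, adjusted p 0.571). Without the 3 libraries high in cortical markers, which leaves only E1 replicates 1 and 4, it was -0.12. Cacna1i (-0.01), Cacng7 (-0.01) and Cacnb4 (0.01) had nearly equal means. The 95% interval lay within 2-fold in either direction for 28 of 33 genes and within 1.5-fold for 22.

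**Figure D2:**
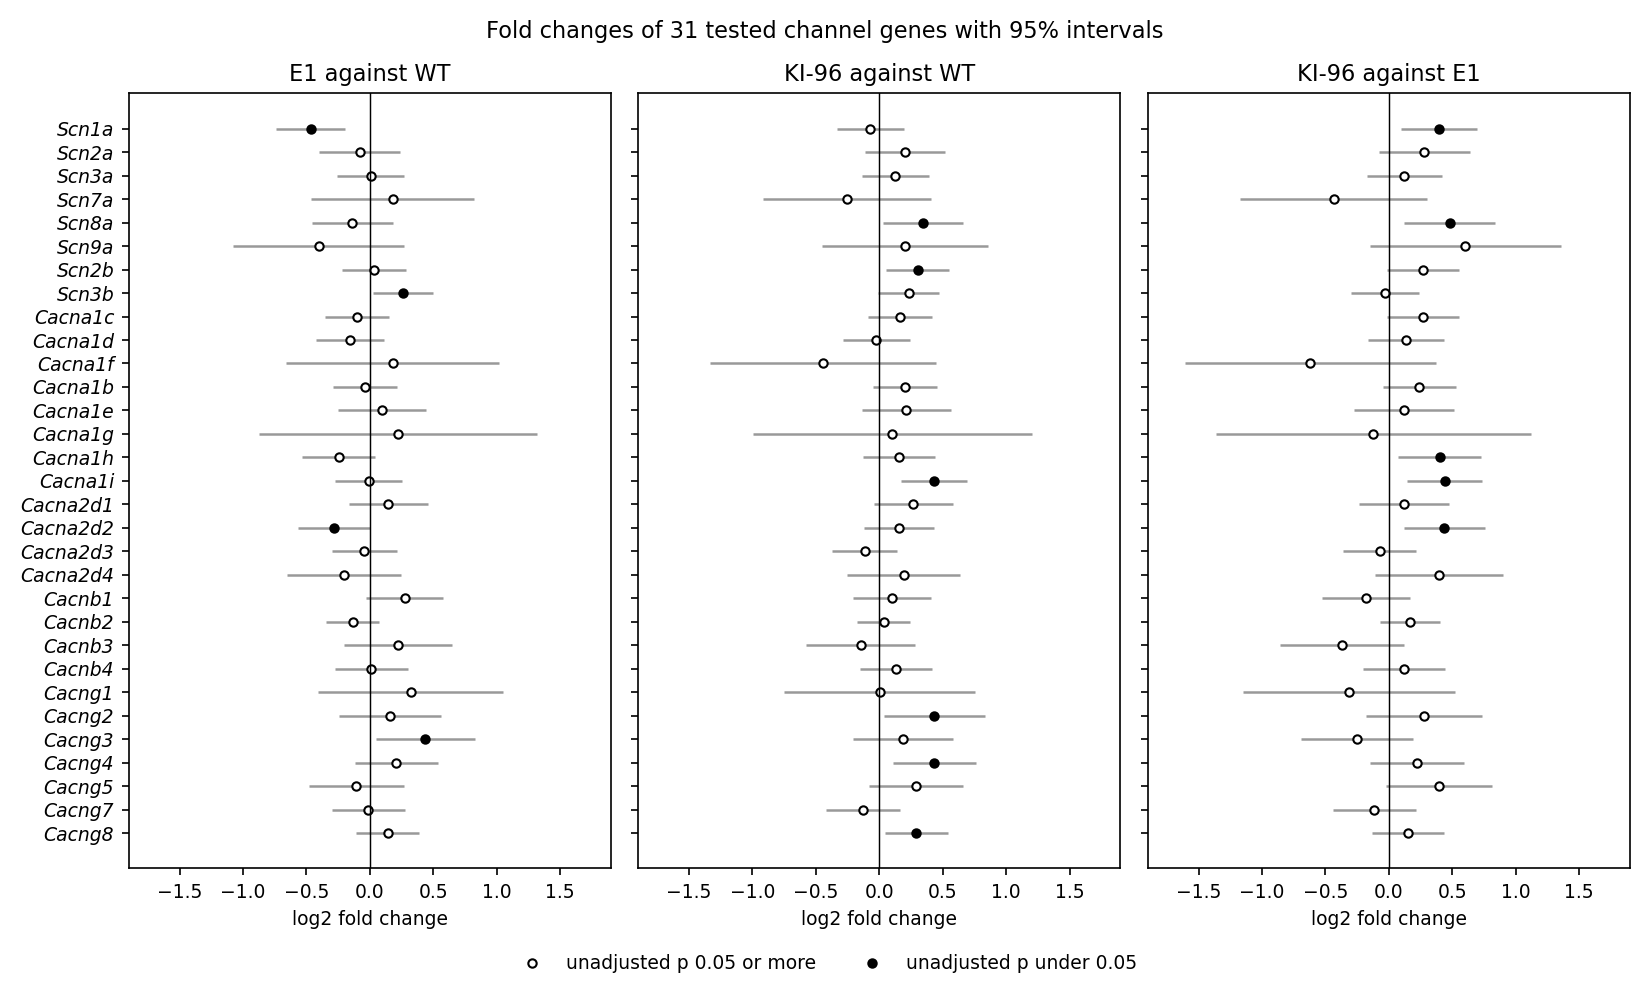
Log2 fold changes of 31 tested channel genes in the 3 comparisons (points) with 95% intervals (lines); filled points have an unadjusted p under 0.05. The filled points number 4, 6 and 5, those of KI-96 against WT and against E1 are all to the right of 0, and 0 genes passed after adjustment.

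KI-96 against WT asks the same of the KI-96 genotype, with the same WT libraries, so that the 2 comparisons with WT share their controls. Again 0 of 33 channel genes passed the threshold in edgeR, where 0% of all genes passed, and 0 passed in DESeq2 or limma-voom. At an unadjusted p under 0.05 stood 6 of 33 genes, all higher, beside 10.5% of all genes in either direction and 5.8% higher: the T-type pore Cacna1i, the sodium channel genes Scn8a and Scn2b, and the TARPs Cacng2, Cacng4 and Cacng8. Fold changes were positive for 25 genes and negative for 8, with a median of 0.16 beside -0.012 over all genes. Groups overlapped for all 33, while 1.29% of all genes had groups that did not. Markers of other tissue also moved in this comparison. All 6 thalamic markers were higher in KI-96 (median log2 fold change 1.00, 3 at an unadjusted p under 0.05), with summed levels of 31.5 to 268 CPM in KI-96 and 25.9 to 90.7 CPM in WT, and KI-96 replicates 3 and 4 above the WT range. Of the 12 cortical markers 8 were lower (median -1.18). Their summed level was 1768 CPM in WT replicate 3 and 294 to 450 CPM in the other WT libraries, beside 393 to 460 CPM in KI-96. In this sum only WT replicate 3 was above the KI-96 range. In mean log2 CPM, WT replicates 3 (6.15) and 2 (3.87) were above the KI-96 range of 2.63 to 3.74. The remaining WT libraries were at 2.58 to 3.38. All 6 markers of choroid plexus and ependyma were lower (median -0.78). The part of these tissue markers in the channel values was not tested.

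Cacna1i had 141 to 205 CPM in WT (median 177), and 224, 244, 288 and 178 CPM in the KI-96 libraries. KI-96 replicates 1 to 3 exceeded every WT library, and KI-96 replicate 4 was at the WT median. The means were 173 ± 22.7 CPM in WT, 172 ± 16.7 CPM in E1 and 234 ± 45.4 CPM in KI-96, with KI-96 against WT at a log2 fold change of 0.43 (SE 0.12, edgeR adjusted p = 0.313). The exact permutation test gave p = 0.0212. The value was 0.32 without KI-96 replicate 3, where the exact permutation p was 0.0667, and 0.54 without KI-96 replicate 4, where the edgeR adjusted p was 0.0657. WT replicate 1 had 193 CPM, and the fold change with Y-linked level as a covariate was 0.27 (SE 0.23).

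Cacng4 had 144 ± 25.6 CPM in WT, 166 ± 36.2 CPM in E1 and 194 ± 40.7 CPM in KI-96 (KI-96 against WT 0.43 on the log2 scale, SE 0.15, edgeR adjusted p 0.365). Its KI-96 libraries stood at 173, 213, 241 and 150 CPM, and the WT libraries at 116 to 192 CPM with WT replicate 1 the highest. Scn2b had 402 ± 40.0 CPM in WT, 411 ± 53.7 CPM in E1 and 495 ± 81.4 CPM in KI-96 (KI-96 against WT 0.30, SE 0.12, adjusted p 0.396). For Scn2b, KI-96 replicates 1 to 3 (560, 534 and 509 CPM) were above the WT range of 344 to 475 CPM and replicate 4 (377 CPM) was inside it. Again WT replicate 1 was the highest WT library. With the Y-linked covariate, Cacng4 stood at 0.020 and Scn2b at 0.058, and 0 of 33 channel genes had an unadjusted p under 0.05. The share of all genes at that p with this covariate was not recorded. WT replicate 1 was the highest of the 7 WT libraries for 12 of 33 channel genes (36.4%), beside 14% of all genes, and the lowest for 2 (6.06%), beside 15.4%.

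Most of the other TARPs and pores had positive values in KI-96 against WT, none of which passed the threshold. Of the 6 TARP genes 5 were positive, with a median log2 fold change of 0.29, among them Cacng2 at 0.43 and Cacng8 at 0.29. For Cacng2 only KI-96 replicate 3 (181 CPM) was above the WT range of 62.1 to 107 CPM. KI-96 replicates 1, 2 and 4 (86.9, 104 and 84.1 CPM) lay inside it. Cacng7 was at -0.13 (SE 0.14, edgeR adjusted p 0.771), turning to 0.026 without KI-96 replicate 3. Scn2a had 323 ± 96.7 CPM in KI-96 (0.20, 95% interval -0.11 to 0.52) and Scn1a 150 ± 18.3 CPM (-0.07, -0.34 to 0.20). The L-type genes Cacna1c (0.16) and Cacna1d (-0.02), the N-type Cacna1b (0.20) and the R-type Cacna1e (0.21) did not pass. Cacna2d3 stood at -0.12 (SE 0.12, edgeR adjusted p 0.759), and between -0.22 without KI-96 replicate 2 and -0.025 without KI-96 replicate 4. Intervals lay within 2-fold for 31 of 33 genes, all but Cacna1f and Cacna1g, and within 1.5-fold for 20.

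KI-96 against E1 compares the 4 mice of each of these genotypes, which were alike in Y-linked level. No channel gene passed in edgeR (0% of all genes did), DESeq2 or limma-voom. At an unadjusted p under 0.05 were 6 of 33, all higher in KI-96, beside 14.3% of all genes in either direction and 7.84% higher. Among them were Cacna1i, Cacna2d2, Scn8a, Scn1a and Cacna1h. The median log2 fold change was 0.15 with 22 of 33 positive, beside -0.0037 over all genes, and groups that do not overlap were found for 0 channel genes and 4.79% of all genes. All 6 thalamic markers were higher in KI-96 than in E1 (median 1.17), and 10 of 12 cortical markers were lower (median -2.39). Summed cortical levels were 1960 and 1346 CPM in E1 replicates 2 and 3, but 358 and 340 CPM in E1 replicates 1 and 4. In KI-96 they were 393 to 460 CPM. The part of the thalamic markers was not tested.

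Cacna1i in E1 stood at 178, 191, 152 and 168 CPM, below KI-96 replicates 1 to 3 and on both sides of KI-96 replicate 4. KI-96 exceeded E1 by 0.44 on the log2 scale (SE 0.14, edgeR adjusted p 0.228), and the exact permutation test gave p = 0.0571, where 70 splits allow 0.0286 at the smallest. Cacna2d2, the extracellular subunit, stood at 161, 174, 189 and 150 CPM in KI-96 and at 136, 97.7, 110 and 153 CPM in E1. E1 replicate 4 was above the lowest KI-96 library. Its fold change was 0.44 (SE 0.15, edgeR adjusted p 0.245), and 0.22 without the 3 libraries high in cortical markers, with only E1 replicates 1 and 4 left. Scn8a stood at 324, 358, 562 and 276 CPM in KI-96 and at 256, 321, 262 and 252 CPM in E1, so that the groups overlapped through KI-96 replicate 4. With means of 380 ± 126 CPM in KI-96 and 273 ± 32.2 CPM in E1, Scn8a differed by 0.48 (SE 0.17, adjusted p 0.255), and by 0.23 without KI-96 replicate 3.

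Scn1a was 0.40 higher in KI-96 on the log2 scale (95% interval 0.10 to 0.70, edgeR adjusted p 0.257) and Cacna1h was 0.40 higher (0.08 to 0.73, adjusted p 0.275). Negative values included those of Cacnb3 (-0.37, SE 0.23, edgeR adjusted p 0.4655) and Scn7a (-0.43, SE 0.35, adjusted p 0.575). The Cacnb3 value was -0.13 without E1 replicate 2. Without the 3 libraries high in cortical markers, with only E1 replicates 1 and 4 left, it was -0.061. The Scn7a value was -0.25 without KI-96 replicate 1. Scn2a (0.28, interval -0.08 to 0.64) and Cacna1e (0.12, -0.28 to 0.51) did not pass. Only 14 of 33 intervals lay within 1.5-fold, and 27 within 2-fold.

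**Figure D3:**
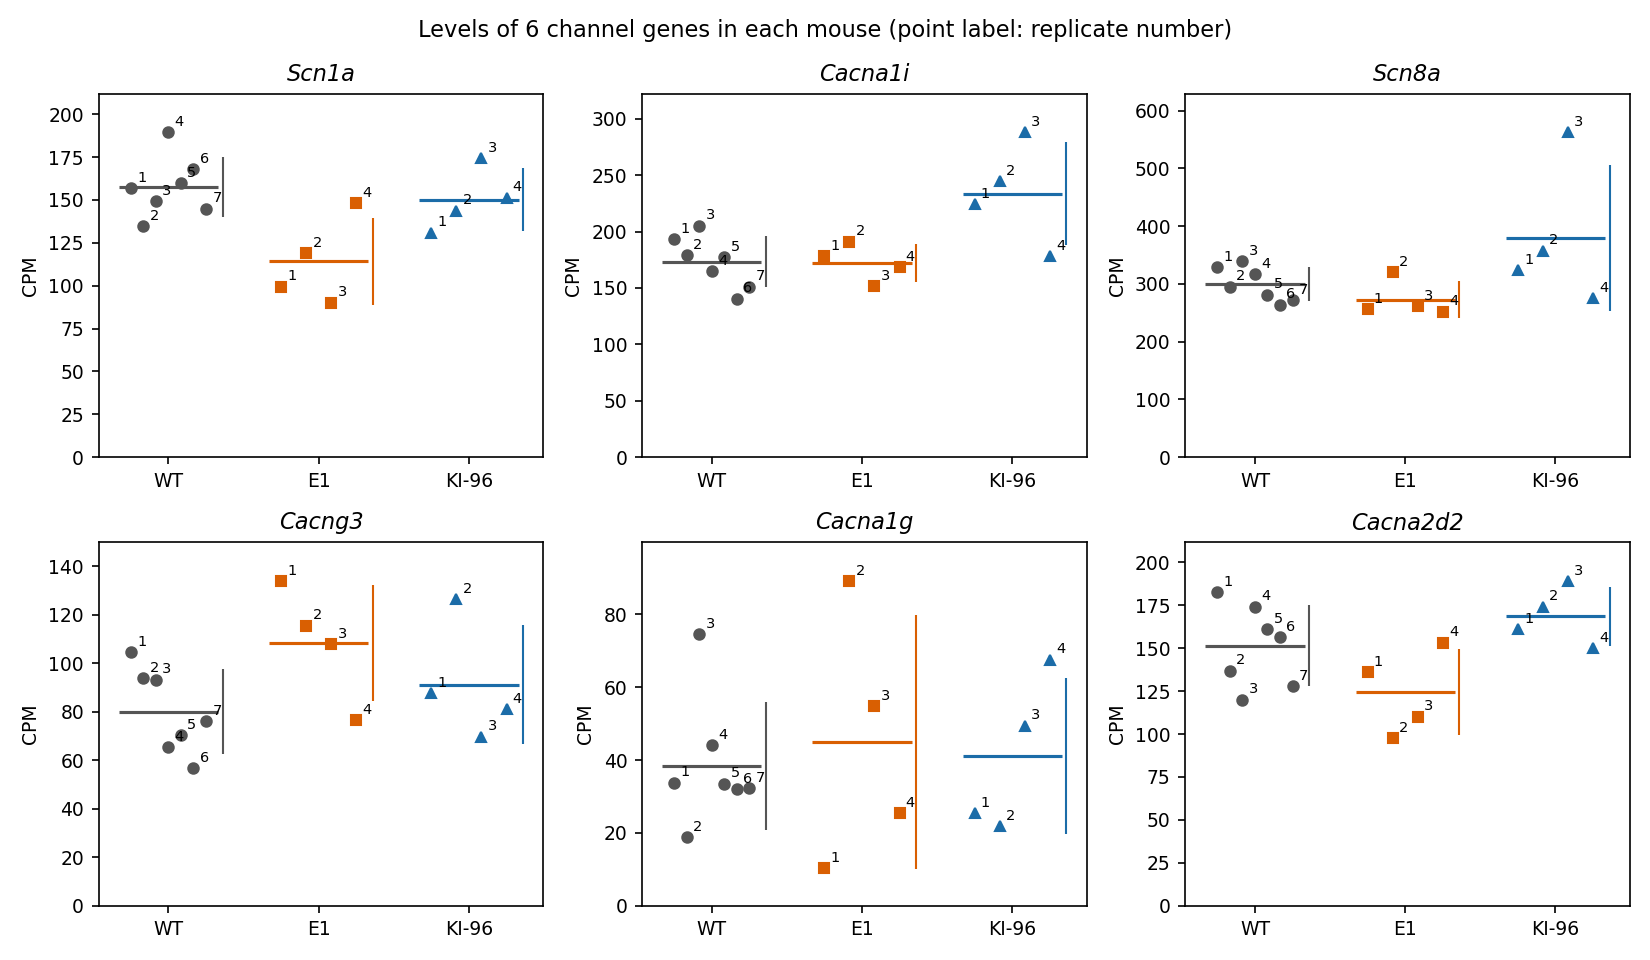
CPM of Scn1a, Cacna1i, Scn8a, Cacng3, Cacna1g and Cacna2d2 in each mouse, with axes from 0; horizontal lines are group means, vertical lines the mean ± SD, and point labels replicate numbers. For Scn1a, E1 replicates 1 to 3 (90.1 to 119 CPM) lie under all WT mice, and for Cacna1i, KI-96 replicates 1 to 3 (224 to 288 CPM) lie over all WT mice.

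KI-96 replicate 3 stood apart from its group, and its differences from the other KI-96 libraries rose with gene length. It was the highest of all 15 libraries for 15 of 33 channel genes (45.5%), beside 19.6% of all genes, and the lowest for 3 (9.09%), beside 22.1%. Among those it was lowest for were the short genes Cacng7 (2441 exonic bases) and Cacnb3 (4010). Channel pores have long transcripts: 11 of the 33 genes have at least 10000 exonic bases, and KI-96 replicate 3 was the highest library for 9 of them (81.8%), beside 54.4% of 1458 protein-coding genes of that length. It exceeded the mean of the other 3 KI-96 libraries by 0.72 for Cacna1e (25228 exonic bases) and 0.82 for Scn8a (15766) on the log2 scale, and its difference was -0.71 for Cacng7. Across the 33 genes, which share this library, Spearman's rho between exon length and that difference was 0.704, and across 14770 protein-coding genes it was 0.53. The corresponding values for KI-96 replicate 4 were -0.421 and -0.446, and for the other 13 libraries, each beside its own group, the channel genes gave -0.524 to 0.503.

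**Figure D4:**
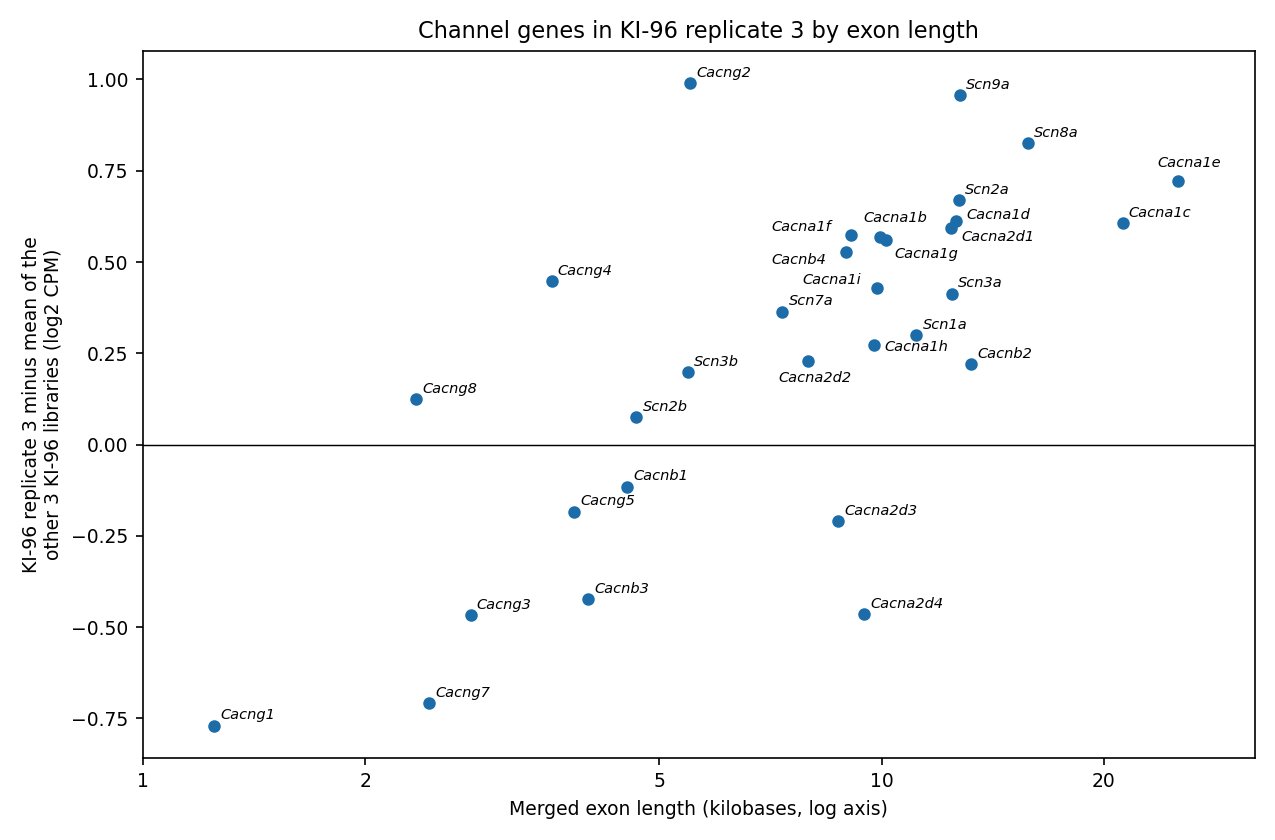
Difference in log2 CPM between KI-96 replicate 3 and the mean of the other 3 KI-96 libraries (vertical axis) by merged exon length in kilobases (log axis), 1 point for each of 31 tested channel genes. Cacng1 at 1249 bases is lowest, at -0.77, and the genes of at least 10000 bases are all above 0.

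Without KI-96 replicate 3, the median log2 fold change of the channel genes in KI-96 against WT was 0.032 in place of 0.16, with 2 genes at an unadjusted p under 0.05 in place of 6. In KI-96 against E1 the median was 0.024 in place of 0.15, with 3 genes in place of 6. The shares of all genes at that p without KI-96 replicate 3 were not recorded. RNA integrity was not analysed here, and its part was not tested. KI-96 replicate 3 also had the lowest interneuron marker mean (3.69 log2 CPM), followed by E1 replicate 1 (4.13), beside 4.50 to 5.03 in the others. The markers behind that mean went opposite ways in KI-96 replicate 3. Sst (721 exonic bases) at 27.0 CPM and Npy (566) at 5.08 CPM were the lowest of the 15 libraries. Nos1 (11151) at 108 CPM was the highest. The part of length in the marker mean was not tested.

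Levels of channel genes were also set beside markers of neighbouring tissue. In the 3 libraries high in cortical markers, Cacna2d2 stood at 97.7 to 120 CPM, below all other 12 libraries (128 to 189 CPM), and Cacna1f averaged 1.37 CPM, above all others (0.614 CPM on average). The other 31 channel genes overlapped. Of the 33, 1 thus lay wholly above and 1 wholly below, beside 2.69% and 1.03% of all genes. Counts this small are not read as a result about the channel genes. The ratio of the mean in those 3 libraries to the mean in the others was 1.60 for Cacnb3, 2.21 for Cacna1g and 0.746 for Cacna1h. The summed level of the 12 cortical markers was 294 to 1768 CPM in WT, 340 to 1960 CPM in E1 and 393 to 460 CPM in KI-96, with 0 of the 12 without reads in any library.

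Among channel genes averaging at least 10 CPM, Cacna1g had the highest coefficient of variation over WT mice. It had 18.7 to 74.7 CPM in WT (median 33.6), 10.4, 89.2, 54.7 and 25.5 CPM in E1, and 25.4, 21.9, 49.5 and 67.6 CPM in KI-96. The highest values of WT and E1 were in libraries high in cortical markers. KI-96 replicate 4, the highest of its group, had the highest mean over 6 thalamic markers, 4.97 log2 CPM beside 1.68 to 3.64 in the other 14 libraries. Whether these markers account for the Cacna1g values was not tested. The 95% interval of its log2 fold change in E1 against WT was -0.87 to 1.32.

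A further list of 32 tested genes held 10 sodium channel partners and initial segment genes, 18 calcium channel partners and 4 genes of the sodium leak channel complex, which is a separate channel. Of these, 0 passed the threshold in edgeR in any comparison. At an unadjusted p under 0.05 stood 0 in E1 against WT, 2 in KI-96 against WT and 6 in KI-96 against E1, of which 5 were higher, beside 8.75%, 10.5% and 14.3% of all genes. As shares of the 32, the latter 2 counts are 6.25% and 18.75%. The medians of their log2 fold changes were 0.02, 0.13 and 0.04. In KI-96 against WT, 9 of 10 sodium channel partners and initial segment genes were positive (median 0.18), beside 47.9% of all genes. Nfasc, the initial segment adhesion protein, was at 0.25 (SE 0.11, edgeR adjusted p 0.429). Its value was 0.16 without KI-96 replicate 3, the library that departed by length, and Nfasc has 14145 exonic bases. Ank3, which encodes the ankyrin that holds sodium channels at the initial segment, was at -0.25 (SE 0.15, adjusted p 0.635) in E1 against WT. It stood at 0.58 (SE 0.17, adjusted p 0.212) in KI-96 against E1. For Ank3 the latter value was 0.37 without KI-96 replicate 3, and 0.73 with an adjusted p of 0.0443 without KI-96 replicate 4. Rem2 and Gem encode small GTPases that inhibit calcium channels. Rem2 was at 0.35 (SE 0.17, adjusted p 0.584) in E1 against WT and -0.46 (SE 0.20, adjusted p 0.310) in KI-96 against E1, but without E1 replicate 1 these values were 0.087 and -0.19. Gem was at -0.69 (SE 0.37, adjusted p 0.524) in KI-96 against WT.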

How the data were processed

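Striatal RNA-seq of 15 mice was analysed from the table of raw read counts per gene that the authors deposited, with no normalization. Per the submitters' processing notes, STAR, HTSeq, build GRCm38 and DESeq2 1.24.0 were used. Their settings, the annotation release and strand handling were not given in the sources used here. All 33 within-group pairs of libraries differed by more than sampling noise (smallest chi-square per degree of freedom 8.65), so each counted as 1 replicate. The labels name no sequencing batch. Identifiers were matched to GENCODE vM21 (54165 of 54232 without version), whose merged exons gave lengths.

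Genes passing edgeR 4.0.16's filter by group (minimum count 10) were fitted, all 15 libraries together, with its quasi-likelihood model after trimmed-mean normalization (R 4.3.3), and tested two-sided with adjustment over 18278 genes and a threshold of 0.05. CPM used the normalized library sizes, and log2 CPM a prior count of 2. Fold intervals are 95% intervals from the model. Scripts were tested on simulated data. Alternatives were DESeq2 1.42.0, limma-voom (limma 3.58.1), other scalings, no filter, only 2 genotypes, a replicate block, cortical and Y-linked covariates, and leaving out libraries.

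Channel genes of at least 1 CPM were named with their levels. Fold changes with tests were given for the 3 higher and 3 lower channel genes, and the 1 higher and 1 lower partner, with the smallest p in each comparison; 2 of the 33 tested channel genes enter the counts and medians but are not reported by name. Other channel genes with values were chosen after these were seen. The members and lists were chosen with earlier results of these data known, and the Y-linked levels by library and the counts for WT replicate 1 were added after the data were seen. Too few reads for these genes left the 5 channel genes removed by the filter untested. Cell type marker lists were used for description. Besides those in the text, the median log2 fold changes in E1 against WT, KI-96 against WT and KI-96 against E1 were -0.35, -0.15 and 0.20 for oligodendrocytes, -0.21, 0.12 and 0.35 for their precursors, -0.15, -0.037 and 0.22 for astrocytes, -0.039, 0.089 and 0.051 for microglia, 0.10, 0.33 and 0.044 for endothelium and mural cells, and -0.42, -0.78 and -0.48 for choroid plexus and ependyma. For spiny projection neurons they were 0.075, -0.12 and -0.13, for interneurons -0.081, -0.17 and 0.18, and for thalamus -0.07 in E1 against WT.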

Additional observations from a re-analysis of the deposited data

Results flagged for a closer look

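In 9 of 90 groups (30 channel genes in 3 genotypes), 1 mouse lay farther from the other mice of its genotype than a 95% limit for a single stray value allows. Chance alone gives about 5% of groups.

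WT replicate 3, a library high in cortical markers, was the stray value for 3 genes, the highest WT library each time. It had 144 CPM of Cacna2d1 where the other 6 had 119 to 127 CPM, 255 CPM of Cacnb3 (others 123 to 178) and 187 CPM of Cacng7 (others 133 to 154). WT replicate 2 had 172 CPM of Cacna1c, the others 131 to 143. E1 replicate 2, also high in cortical markers, had 321 CPM of Scn8a (others 252 to 262).

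E1 replicate 4 was the highest of its group for Cacna2d4, with 6.35 CPM beside 3.30 to 3.79. It was the lowest for Cacnb1, with 183 CPM beside 241 to 246. KI-96 replicate 2 had 261 CPM of Cacnb1, the others 175 to 187. KI-96 replicate 4 had 19.4 CPM of Cacng5, the others 12.5 to 12.8.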

How the results depend on the processing

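The number of channel genes past the threshold was 0 in each comparison under every setting tried, except that 1 (Scn1a) passed in E1 against WT without E1 replicate 4. No member's level moved by more than its SD under other scalings, and no other named channel gene passed. Replicate numbers name separate mice, and same-numbered mice were not treated as pairs. The 12 same-numbered pairs correlated at -0.10 to 0.19, 5 of them over 0.1. These values do not settle whether same-numbered mice shared handling. With a replicate block, all-gene calls were 4 in E1 against WT and 6 in KI-96 against WT, and 1 and 2 channel genes had an unadjusted p under 0.05.

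All-gene calls in E1 against WT (1 as reported) were 58 in DESeq2, 2 in limma-voom, and 0 with no filter, only the 2 genotypes, the cortical covariate, the Y-linked covariate or without the 3 libraries high in cortical markers. In KI-96 against WT (0) they were 72 in DESeq2, 1 in limma-voom and 1 with no filter, and in KI-96 against E1 (0) they were 206 in DESeq2 and 3 with no filter. Leaving out those 3 libraries keeps only replicates 1 and 4 of E1. Channel genes at an unadjusted p under 0.05 in E1 against WT (4) were 2 with the cortical covariate and 1 without those 3 libraries, and in KI-96 against WT (6) they were 0 with the Y-linked covariate. That covariate moved the channel medians to -0.11 in E1 against WT and 0.02 in KI-96 against WT, and turned Cacnb1 in E1 against WT to -0.038. Cacng7 in KI-96 against WT was -0.29 without KI-96 replicate 4 and turned to 0.026 without KI-96 replicate 3. The causes were not tested. Shares of all genes at an unadjusted p under 0.05 were not recorded for these settings or for the replicate block.

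Leaving out each mouse in turn, in E1 against WT, gave 0 to 257 genes called (257 without E1 replicate 4), 0 to 1 channel genes called, 1 to 8 at an unadjusted p under 0.05, 13 to 21 positive, a median of -0.05 to 0.06, 0 to 3 channel genes whose groups did not overlap and an exact permutation p of 0.00833 to 0.025 for Scn1a. In KI-96 against WT it gave 0 to 11 genes called, 2 (without KI-96 replicate 3) to 15 (without KI-96 replicate 4) channel genes at an unadjusted p under 0.05, 22 to 26 positive, a median of 0.032 to 0.24, 0 to 3 without overlap and a permutation p of 0.00833 to 0.0667 for Cacna1i. In KI-96 against E1 it gave 0 to 190 genes called (190 without E1 replicate 4), 0 to 1 partner genes called, 3 to 9 channel genes at an unadjusted p under 0.05, 18 to 24 positive, a median of 0.024 to 0.25, 0 to 4 without overlap and a permutation p of 0.0286 to 0.114 for Cacna1i. The shares of all genes at an unadjusted p under 0.05, or without overlap, were not recorded for these fits. Channel gene counts of those kinds are therefore not read as a result about the channel genes.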
